A study of Homo sapiens with 16 samples.

Results

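DEAD-box RNA helicases and the proteins of cytoplasmic RNA granules were followed in PC3 cells labelled control or DDX4-null. The members were protein-coding genes named DDX plus a number, without DDX4 itself, and a list of decapping, silencing and stress granule proteins. Of 63 listed genes, 61 were matched by Ensembl ID among the 20356 genes of the count table, 34 helicases and 27 granule proteins. DDX52 and DCP1A were not matched and were not analysed here. PC3 is an established human prostate cancer line. RNA-seq counts were available for 16 libraries in 4 groups of 4: control monolayer cells, DDX4-null monolayer cells, control xenograft tumors and DDX4-null xenograft tumors. The null groups are labelled null for the germ cell helicase DDX4 and the controls are described only as control. The labels do not give the method of the knockout, the number of clones, the host animal or whether the replicates were separate cultures and animals, so that p-values measure the spread between these libraries.

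DEAD-box proteins bind RNA and ATP and locally unwind or remodel RNA and RNA-protein complexes. They act at every step of the life of an mRNA, from splicing and export to translation and decay, and many also assemble ribosomes. DDX4 is known from germ granules, while DDX6 and the decapping proteins form P-bodies, and G3BP1 and G3BP2 nucleate stress granules when translation is blocked.

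The box that names the family sits in the helicase core and binds and hydrolyses ATP. The coding sequence around it is shown for 8 helicases that the results turn on, to show which are so alike that short reads may be shared and which carry another box. The sequences below were read from GENCODE v29 transcripts, 5′ to 3′, and the capitals mark the codons of the box.
DDX6: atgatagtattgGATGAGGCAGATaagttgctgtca
DDX3X: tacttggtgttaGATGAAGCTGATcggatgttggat
DDX51: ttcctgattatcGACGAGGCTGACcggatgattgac
DDX19A: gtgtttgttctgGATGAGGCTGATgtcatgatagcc
DDX19B: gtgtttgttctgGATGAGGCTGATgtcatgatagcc
DDX39A: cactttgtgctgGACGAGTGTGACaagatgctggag
DDX11: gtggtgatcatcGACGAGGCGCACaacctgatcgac
DDX60: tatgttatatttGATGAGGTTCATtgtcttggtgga
Of the 34 matched helicases, 28 encode DEAD at this place. DDX39A and DDX39B encode DECD, DDX21 and DDX50 encode DEVD, DDX11 encodes DEAH and DDX60 encodes DEVH. The DDX19A and DDX19B windows were identical, and their coding sequences matched at 95.3% of aligned bases.

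Total counts ranged from 12204254 to 25443952 per library. Levels are given as CPM, read counts scaled to a common library size with TMM factors, and 3 counts corresponded to between 0.118 and 0.246 CPM. Log2 changes with standard errors (SE) and adjusted p come from edgeR's quasi-likelihood test with Benjamini-Hochberg adjustment over all tested genes, and a gene was called at an adjusted p under 0.05. The 5 epithelial markers of PC3 were above 1 CPM in all groups, and the androgen target KLK2 had 0 counts in all groups. Among replicates, the median coefficient of variation of the 54 members above 10 CPM in every group was between 8.07% and 9.31% in the 4 groups, against 8.27% to 10.7% for all 8565 such genes.

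The targeted gene was near the limit of detection everywhere. DDX4 had 0, 4, 1 and 5 counts in control cells and 2, 4, 0 and 1 in null cells. In tumors it had 5, 2, 3 and 3 counts in controls and 3, 2, 2 and 4 in null libraries. The groups overlapped in both settings, with exact permutation p = 0.60 in cells and 0.886 in tumors (two-sided, 4 against 4, smallest possible p 0.0286). DDX4 mRNA did not check the genotype labels, which are used as given.

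Among members, PABPC1, the poly(A)-binding protein, and DDX5 had the highest levels per kilobase of exon in each group. In control cells PABPC1 stood at 686 ± 29.3 CPM per kilobase and DDX5 at 268 ± 32.7 (SD, n = 4). The germ cell helicases were at the other end. DDX25 summed to 2, 3, 4 and 4 counts over the control cells, null cells, control tumors and null tumors, DDX43 to 3, 1, 0 and 1, and DDX53 to 1, 0, 0 and 0. These 3 were below the filter on low counts in every comparison. DDX39B, an mRNA export helicase, was also below it in monolayer cells, with 59, 31, 65 and 46 counts, and 95.2% of its 50-base words are shared with a read-through gene of the GENCODE annotation. DDX47 shares 99.7% of such words with APOLD1, and its level of about 2 CPM is uncertain for that reason.

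In monolayer cells the null state went with changes in both directions among helicases and granule proteins. Of 57 members that passed the filter, 12 were higher in null cells, 15 were lower and 30 were not called. Of all 13006 genes tested, 35.0% were higher and 32.3% were lower. The members had a median log2 change of 0.00 and a median absolute log2 change of 0.24, against 0.48 for all genes. The changes that reached 2-fold were those of DDX19B, DDX51, MOV10 and DDX60, which fell, and DCP1B, which rose. With library totals in place of TMM scaling the split was 19 higher and 12 lower, beside 5030 higher and 3705 lower of all genes. The null cells also differed in proliferation markers, of which 5 of 5 were called higher. These summed to 1007 to 1121 CPM in null cells and 365 to 456 CPM in control cells. Their part in the monolayer changes was not tested.

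**Figure D1:**
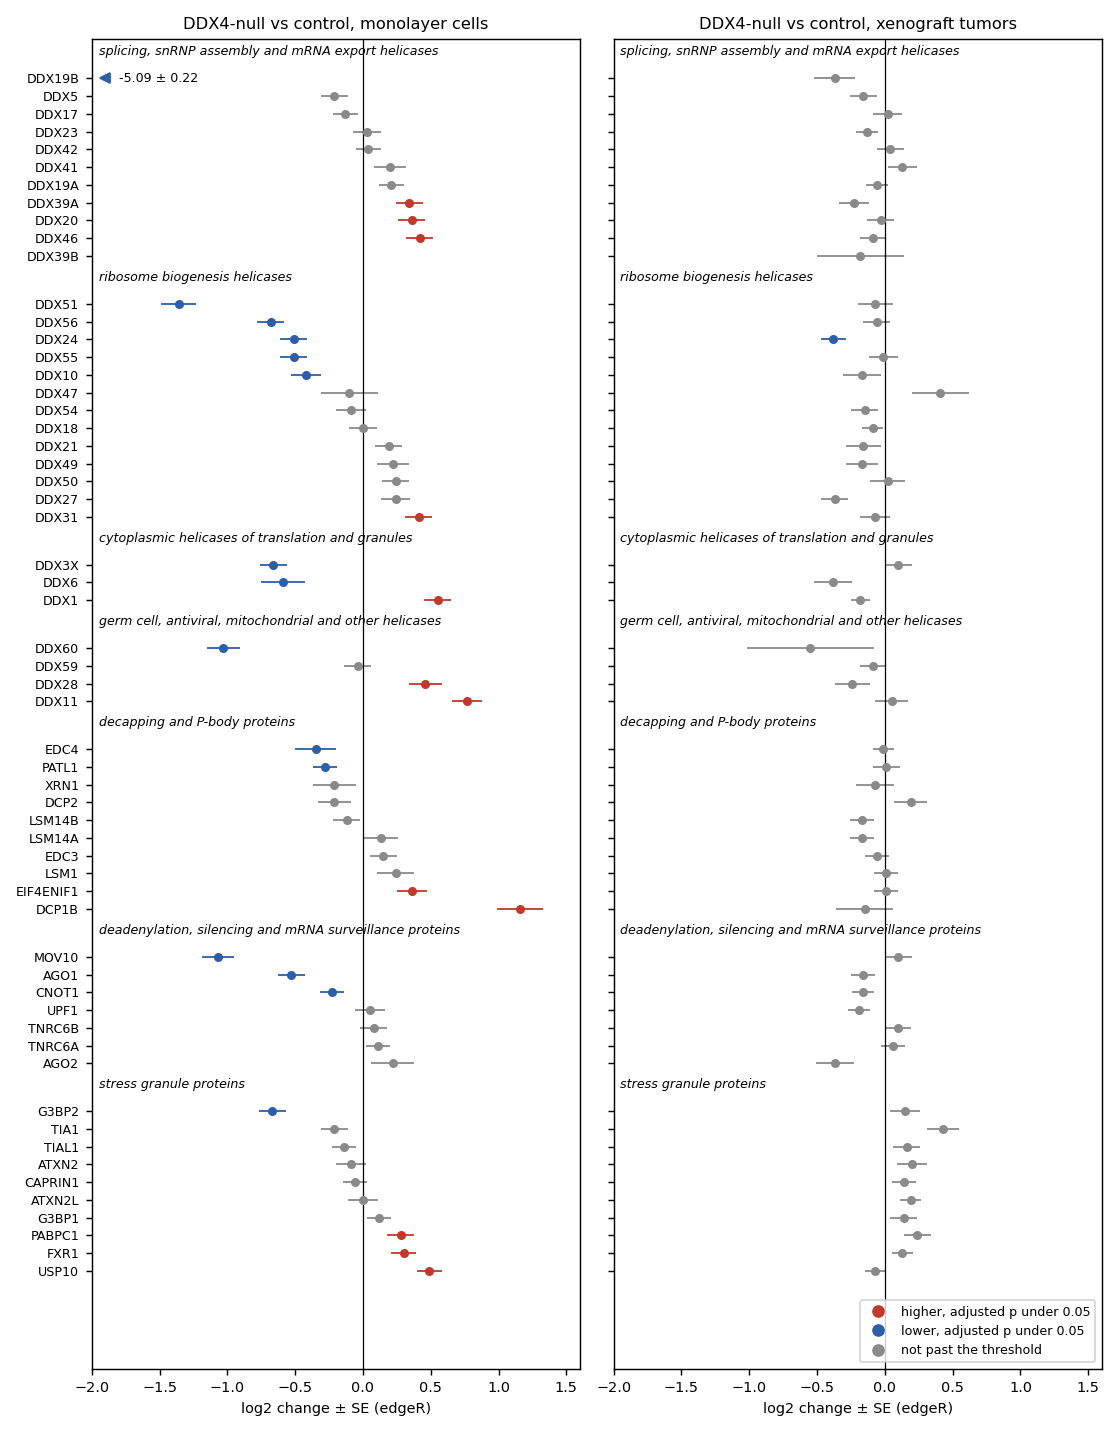
Log2 change of each tested member, DDX4-null against control, in monolayer cells (left) and xenograft tumors (right), with points and bars showing the estimate ± SE and members grouped by role. DDX19B at -5.09 lies off the left scale, and DDX24 is the only coloured point among the tumors.

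Of the nuclear helicases of splicing, snRNP assembly and mRNA export, 10 were tested in monolayer cells. Of these 3 were higher and 1 was lower, beside 35.0% higher and 32.3% lower of all genes. DDX19B, which helps mRNA leave the nuclear pore, had 11.1, 9.55, 8.62 and 10.5 CPM in control cells and 0.161, 0.355, 0.364 and 0.278 CPM in null cells. Every null library was far below every control library. The log2 change was -5.09 ± 0.22 (SE, adjusted p = 2.4e-13). Its paralog DDX19A, with the same box sequence, had 36.4, 39.0, 37.3 and 35.8 CPM in control cells and 44.9, 43.4, 39.6 and 44.2 CPM in null cells. All null libraries of DDX19A were above the controls, but its change of 0.21 ± 0.09 was not called.

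DDX19B gave 21.1% of the reads of both paralogs in control cells (620 DDX19B against 2322 DDX19A counts, exact Clopper-Pearson 95% interval 19.6 to 22.6) and 0.656% in null cells (0.407 to 1.00). These intervals cover counting error only. In tumors the share was 12.3% in controls (11.4 to 13.4) and 10.4% in null libraries (9.39 to 11.6). There DDX19B had 7.22, 6.94, 5.80 and 6.44 CPM in controls and 4.77, 5.84, 4.75 and 5.04 CPM in null libraries, a change of -0.37 ± 0.15 that was not called. The null effect on DDX19B differed between tumors and cells by 4.72 ± 0.27 (adjusted p = 5.0e-11). Another gene of the GENCODE annotation, AC012184.2, holds 62.2% of the 50-base words of DDX19A and 40.8% of those of DDX19B, so that the split of reads between them is uncertain.

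Another 3 helicases of this group rose in null cells, without a 2-fold change. DDX46, a U2 snRNP remodelling factor, rose by 0.42 ± 0.10, DDX20, of the SMN complex that assembles snRNPs, by 0.36 ± 0.10, and DDX39A, an export helicase, by 0.34 ± 0.10. After centring on 51 neighbouring genes DDX39A stood at 0.11 and was not called (adjusted p = 0.37). DDX5, DDX17, DDX23, DDX41 and DDX42 were not called, with log2 changes between -0.21 and 0.20.

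The ribosome biogenesis helicases, which act on pre-ribosomal RNA in the nucleolus, had 5 lower and 1 higher member of 13 tested, beside 32.3% lower and 35.0% higher of all genes. DDX51, which acts on the large subunit, had 34.2, 40.4, 37.2 and 31.4 CPM in control cells and 16.4, 11.2, 15.8 and 12.5 CPM in null cells. The groups did not overlap, and the change was -1.36 ± 0.13 (adjusted p = 2.5e-08). DDX56 fell by 0.68, DDX24 and DDX55 each by 0.51 and DDX10 by 0.42 on the log2 scale. DDX31 was the helicase that rose, by 0.41 ± 0.10. Of these 6, DDX51 alone kept its call and direction both after centring by chromosome and after centring on 51 neighbouring genes. On neighbours DDX55 stood at 0.02, DDX56 at 0.27 and DDX31 at 0.22 (adjusted p = 0.061).

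Of the cytoplasmic helicases, all 3 were called, 1 higher and 2 lower, beside 35.0% higher and 32.3% lower of all genes. DDX3X, which promotes translation initiation and joins stress granules, had 565, 537, 569 and 614 CPM in control cells and 318, 343, 376 and 405 CPM in null cells. Its groups were fully apart, with a change of -0.66 ± 0.10 (adjusted p = 9.4e-06). DDX6, the P-body helicase that represses translation and promotes decapping, had 49.3, 64.0, 70.6 and 47.9 CPM in control cells and 35.9, 26.7, 50 and 41.3 CPM in null cells. One null library, the third, lay above the lowest controls, and the change was -0.59 ± 0.16 (adjusted p = 0.0032). DDX1, a helicase of the tRNA ligase complex, went the other way, from 101 ± 5.92 to 147 ± 13.8 CPM (SD, n = 4), a change of 0.55 ± 0.10. After centring on 51 neighbouring genes none of the 3 was called. DDX1 then stood at 0.17 (adjusted p = 0.13), DDX3X at -0.09 (adjusted p = 0.47) and DDX6 at -0.37 (adjusted p = 0.055). Summed over the 3 genes, control cells held 696 to 764 CPM and null cells 496 to 598 CPM.

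The spread of DDX6 within groups moved with a property of the libraries. The log2 level of the longest genes less that of the shortest (upper and lower quartile of exon length), as a deviation from the group mean, was -0.26 in control library 4 and 0.15 in control library 3, where DDX6 deviated by -0.25 and 0.30 on the log2 scale. In null libraries 2 and 3 it was -0.22 and 0.23, with DDX6 at -0.48 and 0.41. XRN1, the exonuclease that degrades decapped mRNA, deviated by -0.47 and 0.41 in the same null libraries. A gene among the longest is itself part of this measure, and the move was not particular to DDX6. In control libraries 4 and 3, LSM14A deviated by -0.35 and 0.23 and AGO2 by -0.31 and 0.39. DDX60 went the other way there, by 0.11 and -0.05. The mitochondrial share of reads in null library 2 was 6.05%, and between 3.33% and 3.55% in the other null libraries. The part of this in the DDX6 change was not tested.

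**Figure D2:**
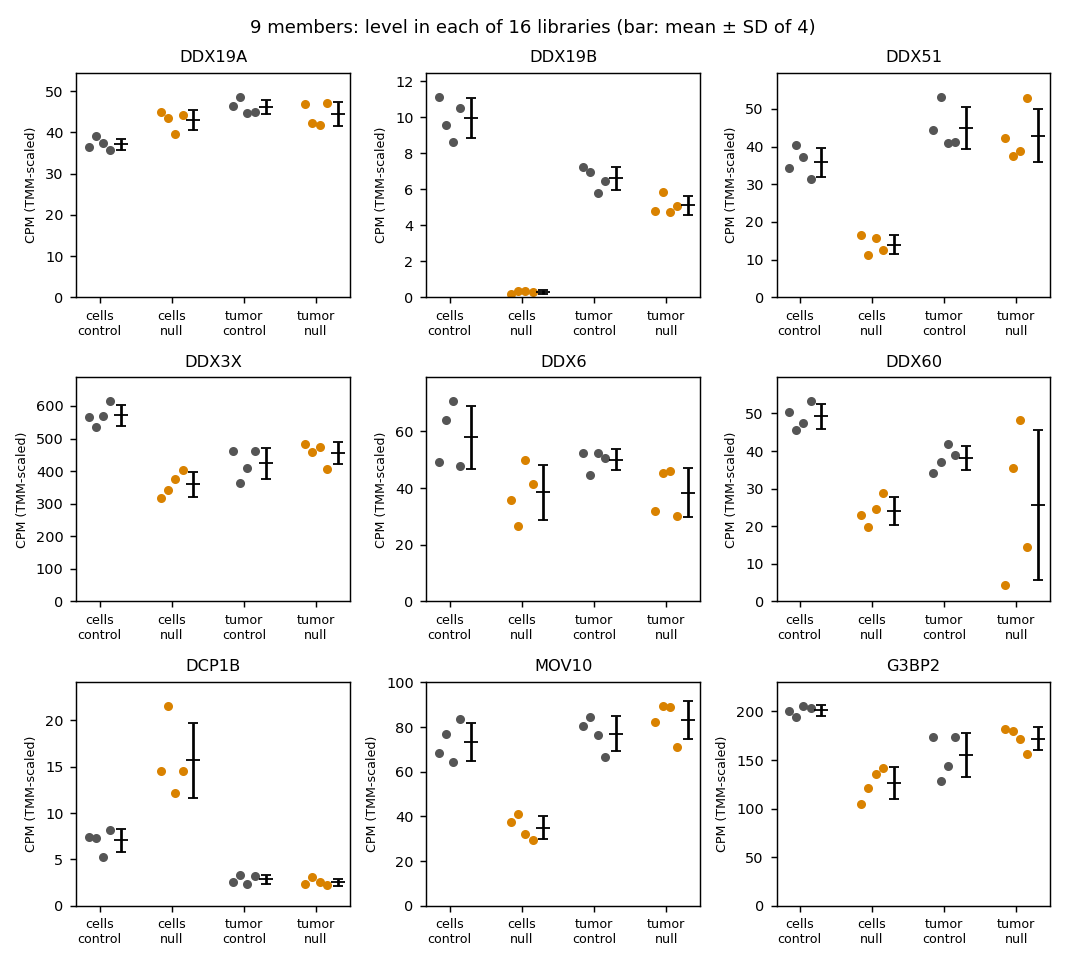
Level of 9 members in each of the 16 libraries, in TMM-scaled CPM on axes that start at 0, with points for libraries and bars for the mean ± SD of 4. DDX19B is near 0 in null cells alone, and the null tumors of DDX60 range from 4.51 to 48.3 CPM.

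Among the remaining helicases, DDX60 fell and DDX11 and DDX28 rose in null cells. DDX60, an interferon-induced antiviral protein, had 50.4, 45.7, 47.5 and 53.2 CPM in control cells and 23.1, 19.8, 24.6 and 28.9 CPM in null cells. No null library reached the control range, and the change was -1.03 ± 0.12 (adjusted p = 2.2e-07). DDX11, a DNA helicase of sister chromatid cohesion, rose from 29.9 ± 3.24 to 51 ± 5.04 CPM (SD, n = 4), with a change of 0.77 ± 0.11. It shares 40.1% of its 50-base words with other genes, so that its counts are uncertain. DDX28, of the mitochondrial ribosome, rose by 0.46 ± 0.12, and DDX59 was not called at -0.04.

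Decapping and P-body proteins split, with 2 higher, 2 lower and 6 not called of 10, beside 35.0% higher and 32.3% lower of all genes. DCP1B, a cofactor of the decapping enzyme, had 7.42, 7.32, 5.25 and 8.21 CPM in control cells and 14.5, 21.6, 12.2 and 14.5 CPM in null cells. The null libraries were all above the controls, and the change was 1.16 ± 0.17 (adjusted p = 6.5e-06). EIF4ENIF1, which carries the cap-binding protein into P-bodies, rose by 0.36 ± 0.11 (adjusted p = 0.0058). It was not called after centring by chromosome, at 0.09, or on neighbours, at 0.19. The scaffold EDC4 had a change of -0.35 ± 0.15 (adjusted p = 0.039), and PATL1, which bridges decapping and deadenylation, had -0.28 ± 0.09 (adjusted p = 0.012). DCP2, the decapping enzyme itself, was not called at -0.21, nor were XRN1 at -0.21, LSM14B at -0.12, LSM14A at 0.13, EDC3 at 0.15 and LSM1 at 0.24.

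Of 7 deadenylation, silencing and surveillance proteins, 3 fell and none rose, beside 32.3% lower and 35.0% higher of all genes. MOV10, an RNA helicase that associates with the silencing complex, had 68.5, 76.9, 64.4 and 83.6 CPM in control cells and 37.4, 41.2, 32.3 and 29.2 CPM in null cells. Its groups did not overlap, with a change of -1.07 ± 0.12. AGO1, a small RNA binding Argonaute, went from 51.1 ± 3.83 to 35.4 ± 2.93 CPM (SD, n = 4), a change of -0.53 ± 0.10. CNOT1, the scaffold of the CCR4-NOT deadenylase, had a change of -0.23 ± 0.09. UPF1, TNRC6A, TNRC6B and AGO2 were not called, with changes between 0.05 and 0.22.

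The 2 G3BP paralogs differed among the stress granule proteins. G3BP2 had 200, 194, 206 and 204 CPM in control cells and 105, 121, 136 and 142 CPM in null cells, with no overlap and a change of -0.67 ± 0.10 (adjusted p = 1.0e-05). G3BP1 had 252, 253, 253 and 263 CPM in control cells and 256, 257, 279 and 316 CPM in null cells, and was not called at 0.12 ± 0.09. USP10, a deubiquitinase that binds both, rose by 0.49 ± 0.09, FXR1 by 0.30 ± 0.09 and PABPC1 by 0.28 ± 0.10 (adjusted p = 0.023). CAPRIN1, the partner of G3BP proteins, stood at -0.06, TIA1 at -0.21, TIAL1 at -0.14, ATXN2 at -0.09 and ATXN2L at 0.00, none of them called.

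Several of these changes moved with the rest of their chromosome. In monolayer cells the median log2 change over all tested genes was -0.73 on chromosome 7, -0.47 on chromosomes 14 and X, and -0.27 on chromosome 11. DDX56 (chromosome 7) changed by 0.06 after each chromosome was centred on its median, DDX24 (14) by -0.02, DDX3X (X) by -0.17, PATL1 (11) by 0.01, DDX10 (11) by -0.13, DDX6 (11) by -0.30, EIF4ENIF1 (22) by 0.09 and PABPC1 by 0.05, and none of these was then called. Of the 27 called members, 19 kept their call and direction after this centring and 15 after centring on 51 neighbouring genes. The latter ended the calls of DDX24, DDX3X, DDX6, PATL1, EIF4ENIF1, PABPC1, DDX1, DDX31, DDX39A, DDX55 and CNOT1, and turned DDX56 to 0.27 (adjusted p = 0.031). DDX19B, DDX51, DDX60, MOV10, G3BP2, AGO1, DCP1B, DDX11, DDX20, DDX28, DDX46, USP10, FXR1 and EDC4 kept theirs under both, at -5.24, -1.22, -1.18, -0.94, -0.83, -0.40, 1.29, 0.91, 0.49, 0.31, 0.25, 0.33, 0.34 and -0.51 after chromosome centring. On 51 neighbours DCP1B stood at 0.52, DDX51 at -0.85 and AGO1 at -0.29. Whether a change in gene copies has a part in the chromosome medians was not tested.

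**Figure D3:**
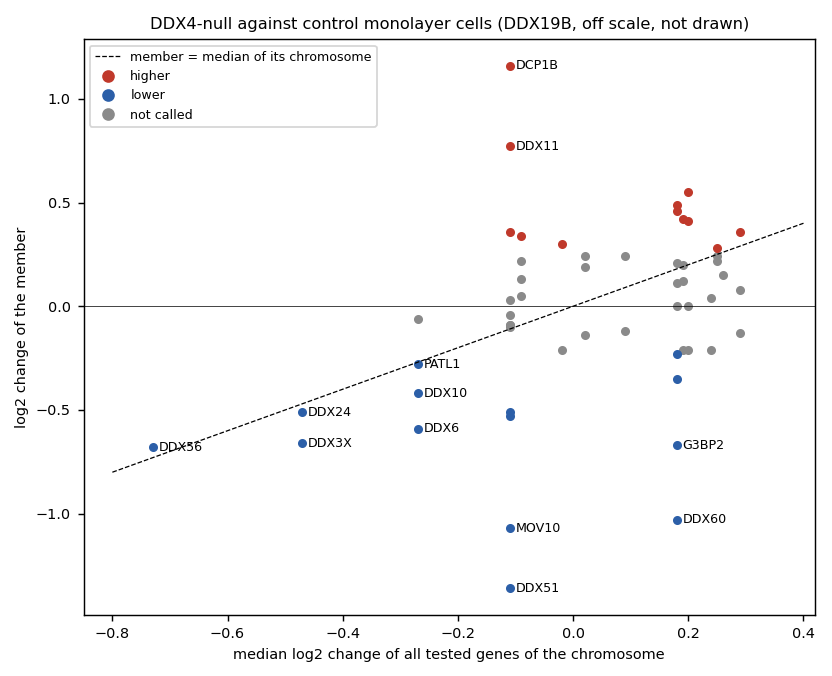
Monolayer log2 change of each member (vertical axis) against the median log2 change of all tested genes on its chromosome (horizontal axis), with the dashed line where both are equal. DDX56, DDX24, DDX3X and PATL1 lie near the line, while DDX51, MOV10, DDX60, G3BP2, DCP1B and DDX11 lie away from it.

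Leaving out 1 library ended the call of 3 weakly changed members. EDC4 was no longer called without control library 2 or 3 or null library 2 or 4. CNOT1 lost its call without control library 1 or 3 or null library 2, and PABPC1 without control library 1 or 2 or null library 2 or 3. Library totals in place of TMM also ended the calls of EDC4, CNOT1 and PATL1. The lowest absolute change over these and the other alternatives was -0.25 for EDC4, -0.16 for CNOT1 and 0.05 for PABPC1.

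The wider RNA decay and granule machinery was followed in lists of genes that are not members. Beside their monolayer counts stand 35.0% higher and 32.3% lower of all genes. In monolayer cells the RNA exosome and SKI complex, which degrade RNA from the tail end, had 10 higher and 2 lower genes of 16, with EXOSC9 at 0.89 and EXOSC1 at -1.12. Small RNA silencing factors had 3 higher and 4 lower of 9. Among the latter were 2 Argonautes, AGO3 at -1.0 ± 0.10 and AGO4 at -1.26 ± 0.14. Like AGO1, which also fell, they lie on chromosome 1, where the median was -0.11. The fall of AGO1 went from -0.53 to -0.4 after centring by chromosome and to -0.29 after centring on neighbouring genes. The part of the local region in the falls of these Argonautes was not tested. The kinases and phosphatase subunits that act on eIF2alpha, the switch upstream of stress granules, had 1 higher and 5 lower of 7. EIF2AK3 fell by 1.0 ± 0.10 and EIF2AK4 rose by 0.96 ± 0.12.

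The remaining lists stand beside the same 35.0% higher and 32.3% lower of all genes. In them, 2 of 3 eIF4A genes were lower, namely EIF4A2 at -0.64 and EIF4A1, whose exons a read-through gene shares, at -0.66. DEAH-box helicases had 5 higher and 2 lower of 15, among the latter DHX37 at -0.76 and DHX34 at -0.65. CCR4-NOT and PAN deadenylase genes had 4 higher and 5 lower of 17, with the antiproliferative cofactors BTG2 at 2.09 and TOB1 at 0.79 among the former. The LSM ring had 3 higher and 2 lower of 7, with LSM6 at 0.57 and LSM5 at -0.73. Nonsense-mediated decay factors had 2 higher and 4 lower of 12, with UPF2 at 0.63 and SMG5 at -0.74. Other stress granule and mRNP proteins had 7 higher and 8 lower of 23, with HNRNPA1 at 0.77.

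In xenograft tumors DDX24 was the single member called between genotypes. Of 58 tested, 0 were higher and 1 was lower in null tumors, against 0.981% higher and 1.10% lower of all 12942 genes. At an unadjusted p under 0.05 there were 10, beside 2763 of all 12942 genes. With DESeq2 in place of edgeR, 1 was higher and 2 were lower, beside 481 higher and 399 lower of all genes. The monolayer and tumor comparisons share no libraries. Summed over the 61 members, control tumors held 8348 to 8703 CPM and null tumors 8557 to 9013 CPM.

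DDX24, a ribosome biogenesis helicase, had 234, 252, 234 and 230.1 CPM in control tumors and 170.1, 201, 189 and 170.4 CPM in null tumors. The groups did not overlap, and the change was -0.38 ± 0.09 (adjusted p = 0.049). The call was lost when any single tumor library was left out and ended in 11 of 17 alternatives. DDX27, of the same group, had -0.37 ± 0.10 without overlap and was not called (adjusted p = 0.092).

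TIA1, a stress granule protein, had 94.3, 72.4, 81.8 and 96.6 CPM in control tumors and 135, 94.2, 119 and 118 CPM in null tumors. One null tumor, the second, lay within the control range, and the change of 0.43 ± 0.12 was not called (adjusted p = 0.091). DDX6 stood at -0.38 ± 0.14 and AGO2 at -0.37 ± 0.14, also not called. DDX3X was at 0.10, EDC4 at -0.01, LSM14A at -0.17, XRN1 at -0.07, EIF4ENIF1 at 0.01, PATL1 at 0.01, G3BP1 at 0.14, G3BP2 at 0.15, CAPRIN1 at 0.14 and UPF1 at -0.19. Of the other lists, DHX35 at -0.59 and ZFP36 at 0.71 were the called genes.

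Among the 54 members above 10 CPM, DDX60 had the highest coefficient of variation in null tumors, 77.4%. It had 34.3, 37.2, 41.8 and 39.0 CPM in control tumors and 4.51, 35.5, 48.3 and 14.4 CPM in null tumors. Null tumors 1 and 4 lay below every control, and null tumor 3 above. The change of -0.55 ± 0.47 was not called, and was -0.21 without null tumor 1 and -1.04 without null tumor 3. Null tumor 1 also had the highest fibroblast sum. That 8-gene list was at 1377 to 1876 CPM in control tumors and 1657 to 10963 CPM in null tumors, with 7 of 8 genes above 1 CPM in both groups and none at 0. Its part in the level of DDX60 was not tested.

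The sequence upstream of DDX60 is shown because it alone among the members' promoters held the interferon-type element. RefSeq (GRCh38.p14) gives the 250 bases before the start of the gene at chr4:168318753-168319002, minus strand, 5′ to 3′, with matches in capitals. The motif was GAAA, any 2 bases, then GAAA, on either strand.
DDX60 promoter: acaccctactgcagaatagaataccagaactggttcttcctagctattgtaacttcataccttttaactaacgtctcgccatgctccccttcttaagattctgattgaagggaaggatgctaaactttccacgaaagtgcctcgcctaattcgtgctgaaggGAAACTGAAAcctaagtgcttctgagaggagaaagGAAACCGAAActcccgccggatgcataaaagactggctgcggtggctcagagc
The 2 matches begin at -88 and -53 from the start. Of 27305 promoters, each searched over 250 bases before and 50 after the start, 996 (3.65%) hold the motif, and so did 1 of the 53 member promoters found. The E-box CACGTG, searched in the same way, was in 7.43% of promoters and in those of DDX5, DDX31 and DDX54. A match describes letters and not binding.

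The setting itself was compared in controls, where tumors also hold other cells. In bulk RNA, fewer cells of a type and less RNA per cell cannot be told apart. Of 8 fibroblast genes 7 were above 1 CPM in control tumors against 2 in control cells (sum 1377 to 1876 against 23.8 to 31.4 CPM). Endothelial genes summed to 17.7 to 25.2 against 14.0 to 15.8 CPM, mostly from KDR, with means of 18.2 against 14.7 CPM. VWF, CDH5 and TEK had means of 1.18, 1.34 and 2.01 CPM in control tumors against 0.0162, 0.00 and 0.355 in control cells. Leukocyte genes summed to 10.9 to 16.7 against 0.841 to 2.44 CPM and skeletal muscle genes to 67.3 to 227 against 0.0663 to 0.215. Proliferation markers, 5 of 5 above 1 CPM, summed to 549.9 to 649.6 CPM in control tumors and 365 to 456 in control cells, and to 1007 to 1121 in null cells. The part of these markers in the results above and below was not tested.

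Of 58 members tested, 20 were higher in control tumors than in control cells, 20 were lower and 18 were not called, against 33.9% higher and 31.0% lower of all 12858 genes. With library totals in place of TMM scaling the median log2 change of all genes moved by 0.166, from 0.02 to 0.186. Then 24 members were higher and 11 lower, beside 5569 higher and 2870 lower of all genes. This comparison shares its control libraries with both genotype comparisons.

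**Figure D4:**
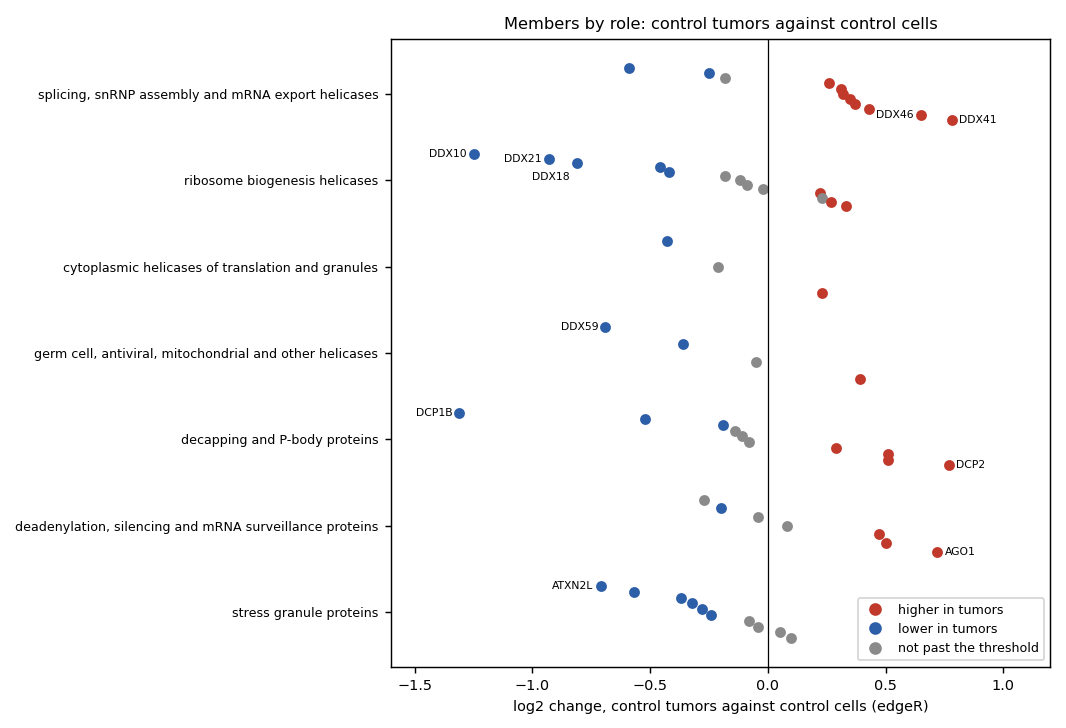
Log2 change of members in control tumors against control cells (horizontal axis), with one band per role, one point per member and names for changes beyond 0.6. Most called splicing and export helicases lie to the right of 0, and all called stress granule proteins lie to the left.

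Splicing and export helicases were mostly higher in tumors, 8 of 11, with 2 lower, beside 33.9% higher and 31.0% lower of all genes. DDX41, a spliceosome-associated helicase, had 118, 109.9, 104 and 145 CPM in control cells and 208, 209.5, 187 and 209 CPM in control tumors, without overlap and with a change of 0.78 ± 0.10. DDX46 followed at 0.65, DDX17 at 0.43, DDX23 at 0.37 and DDX39A at 0.35, and DDX19A, DDX20 and DDX42 were also called. DDX19B at -0.59 ± 0.13 and DDX5 at -0.25 ± 0.10 were lower. DDX39A, DDX42 and DDX19A lost their calls on centring by chromosome and on neighbours. Library totals ended the call of DDX5, as did leaving out control cells 1 or 4 or control tumor 3 or 4. DDX20 lost its call without control tumor 3, and DDX42 without control cells 3 or control tumor 1 or 2.

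Ribosome biogenesis helicases had 3 higher and 5 lower of 13, beside 33.9% higher and 31.0% lower of all genes. DDX10 had 149, 112, 122 and 149 CPM in control cells and 52.5, 57.9, 61.5 and 50.9 CPM in control tumors, a change of -1.25 ± 0.11. DDX21, a nucleolar helicase, had 462, 420.2, 446 and 478 CPM in control cells and 238, 221, 224 and 259.6 CPM in control tumors, a change of -0.93 ± 0.09. DDX18 changed by -0.81 ± 0.09. For these 3 genes every tumor lay below every cell library. DDX31 at -0.46 and DDX49 at -0.42 (not called with library totals) were also lower, and DDX51 at 0.33, DDX55 at 0.27 and DDX24 at 0.22 were higher. The last 3 were close to the threshold: DDX51 lost its call without control tumor 2, DDX55 without 6 of the 8 libraries in turn (not without control cells 3 or control tumor 4) and DDX24 without 7 of 8 (not without control cells 4).

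The other helicases changed in both directions. DDX3X was lower in tumors at -0.43 ± 0.09, DDX59 at -0.69 ± 0.09 and DDX60 at -0.36 ± 0.09. DDX1 at 0.23 and DDX11 at 0.39 were higher, and DDX6 was not called at -0.21. DDX60 lost its call with library totals and on centring by neighbours, and DDX1 without control cells 2 or 3 or control tumor 2 or 3.

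Among decapping proteins, the enzyme and its cofactor went opposite ways. DCP2 had 23.9, 22.1, 23.3 and 25.3 CPM in control cells and 43.4, 32.3, 40.9 and 43.6 CPM in control tumors, a change of 0.77 ± 0.11. DCP1B had 7.42, 7.32, 5.25 and 8.21 CPM in control cells and 2.52, 3.29, 2.30 and 3.19 CPM in control tumors, a change of -1.31 ± 0.18. Neither gene's groups overlapped. EDC4 and EIF4ENIF1 were higher, each at 0.51, and XRN1 at 0.29 (adjusted p = 0.039). LSM1 was lower at -0.52 and PATL1 at -0.19 (adjusted p = 0.049), and LSM14A was not called at -0.11. On centring by neighbours EDC4 stood at -0.11 and was not called. XRN1 lost its call without control cells 1 or 4 or control tumor 1 or 4, and PATL1 without control cells 1 or 3 or any control tumor.

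Silencing and surveillance proteins had 3 higher and 1 lower of 7, beside 33.9% higher and 31.0% lower of all genes. AGO1 was higher in tumors at 0.72 ± 0.09, the GW182 protein TNRC6A at 0.50 ± 0.08 and UPF1, the nonsense-mediated decay helicase, at 0.47 ± 0.10. CNOT1 was lower at -0.20 ± 0.08, a call lost without control cells 1 or 3 or any control tumor.

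Stress granule proteins had 0 higher and 6 lower of 10, beside 33.9% higher and 31.0% lower of all genes. ATXN2L had 285, 346, 324 and 239.5 CPM in control cells and 182, 195, 181 and 171 CPM in control tumors, without overlap and with a change of -0.71 ± 0.11. ATXN2, its paralog, was at -0.57 ± 0.09, G3BP2 at -0.37, CAPRIN1 at -0.32, FXR1 at -0.28 and PABPC1 at -0.24, while G3BP1 at 0.05 and TIA1 at -0.04 were not called. With library totals, G3BP2, CAPRIN1, FXR1 and PABPC1 were no longer called. PABPC1 also lost its call without control cells 1 or 3 or control tumor 2 or 3.

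Outside the members, the control tumors had lower levels for 4 of 7 LSM ring genes and higher levels for none, with LSM4 at -0.61 and LSM8 at -0.55. Beside this and the counts that follow stand 33.9% higher and 31.0% lower of all genes. CCR4-NOT and PAN genes had 2 higher and 9 lower of 17, with CNOT9 at 1.33 and BTG1 at -0.79. Small RNA silencing factors had 6 higher and 2 lower of 9, with TNRC6C at 1.04 and DGCR8 at 0.67. The exosome and SKI list had 4 higher and 6 lower of 16, among the former EXOSC6 at 1.23 and EXOSC9 at 0.85. DEAH-box helicases had 5 higher and 3 lower of 15, with DHX38 at 0.78 and DHX29 at 0.42. Nonsense-mediated decay factors had 1 higher and 3 lower of 12, with MAGOH at -0.86. The eIF2alpha list had 2 higher and 3 lower of 7, with EIF2AK2 at 0.83 and the phosphatase subunit PPP1R15A at -1.83. Of eIF4A genes EIF4A1 was lower, at -0.51, and of other mRNP proteins 5 of 24 were higher and 8 lower, with YBX3 at -1.02. IGF2BP1, an mRNA-binding protein of that list, was near the limit in control cells at 0.0323 ± 0.0647 CPM and stood at 2.16 ± 1.07 CPM in control tumors (SD, n = 4).

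The difference between the null effect in tumors and that in cells was tested across all 16 libraries. Of 58 members, 10 had a higher and 13 a lower effect in tumors, against 26.0% and 26.8% of all 13603 genes. With library totals the counts were 8 and 19, beside 2721 and 4404 of all genes. The largest differences among members were those of DDX19B at 4.72 ± 0.27, DCP1B at -1.30 ± 0.28, DDX51 at 1.29 ± 0.19 and MOV10 at 1.17 ± 0.16. For MOV10, null tumors had 82.3, 89.6, 88.9 and 71.1 CPM and control tumors 80.7, 84.4, 76.6 and 66.6 CPM, which overlapped, unlike in cells. DDX3X at 0.77, G3BP2 at 0.83, DDX1 at -0.73, DDX11 at -0.73 and DDX28 at -0.71 also differed. The effect on DDX6 differed by 0.21 ± 0.24 and that on DDX60 by 0.48 ± 0.50, neither called. EDC4 at 0.35, LSM14A at -0.30, XRN1 at 0.14, PATL1 at 0.29, G3BP1 at 0.02, CAPRIN1 at 0.20 and UPF1 at -0.24 were not called either. Outside the members, DEAH-box helicases had 2 higher and 8 lower effects of 15 in tumors, among them DHX34 at 0.76 and DHX35 at -0.79, and the exosome list had 2 and 8 of 16, with DIS3L at -1.49 and EXOSC9 at -1.05. Silencing factors had 4 and 3 of 9, with AGO3 at 1.13 and TNRC6C at -1.83, and deadenylase genes 5 and 5 of 17, with BTG2 at -2.22 and PARN at -0.77. The eIF2alpha list had 4 and 1 of 7, with EIF2AK3 at 1.24 and EIF2AK4 at -1.22, and the eIF4A genes 2 and 0 of 3, with EIF4A2 at 0.98 and EIF4A1 at 0.69. LSM ring genes had 1 and 2 of 7 (LSM5 at 0.91, LSM2 at -0.67), decay factors 2 and 2 of 12 (SMG5 at 0.58, CASC3 at -0.59) and other mRNP proteins 5 and 3 of 24 (ZFP36 at 1.21).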

How the data were processed

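RNA was measured in 16 libraries of PC3 cells and xenograft tumors. Per the labels' protocols, RNA was DNase-treated and libraries were made with a stranded mRNA kit. The deposited table holds raw read counts per Ensembl gene, and the submitters' processing notes name Trimmomatic 0.39, STAR 2.7.10a, featureCounts 2.0.3 and GRCh37. Not given in the sources used here are the strand setting of counting, the gene annotation and how reads of the host were handled, so that reads of overlapping genes cannot be told apart. Symbols were matched for 19446 IDs by gene name table and 65 by GENCODE v29, and 845 had none. Lengths, gene order and coding sequences come from GENCODE v29 and promoters from RefSeq GRCh38.p14. The lengths and the gene order were joined to the GRCh37 counts by Ensembl ID. They were used for levels per kilobase, the comparison of long and short genes and both centrings.

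Counts were tested with edgeR 4.0.16 (R 4.3.3, limma 3.58.1): TMM scaling, filterByExpr, the quasi-likelihood F test and Benjamini-Hochberg adjustment over all tested genes at 0.05. Each comparison used its own 8 libraries, and the difference of effects all 16. DDX4 was tested by an exact permutation test on log2(CPM + 0.5). The tests were run on simulated data first. Replicates differed by more than sampling noise. Alternatives were DESeq2 1.42.0, other scalings and filters, a replicate block, centring by chromosome or by 51 neighbouring genes, a model of 16 libraries and each library left out. The members and lists were chosen with earlier results of these data known. Within each role, called members at 1 CPM or more were named by size, up to 5 in each direction. DDX6, DDX3X, EDC4, LSM14A, XRN1, EIF4ENIF1, PATL1, G3BP1, G3BP2, CAPRIN1, TIA1 and UPF1 were always named, and up to 2 called genes of smallest p were named per other list. Some genes that this rule names are not reported here. PC3 epithelial, prostate lineage, fibroblast, endothelial, leukocyte, skeletal muscle and proliferation markers were summed per library.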

Additional observations from a re-analysis of the deposited data

Results flagged for a closer look

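In 13 of 232 groups of 4 libraries, 1 library stood far from the other 3, and chance gives about 1 in 20. DDX39A was at 162 CPM in null tumor 4 and at 126 to 127 in the other libraries of its group. In control tumor 3, DDX41 had 187 CPM, against 208 to 209.5 in the others. For DDX41, null tumor 1 gave 281 CPM and the others 195 to 209. DDX21 was at 154 CPM in null tumor 1 and at 227 to 233 in the other libraries of its group. In control tumor 2, DDX24 had 252 CPM, against 230.1 to 234 in the others. For DDX47, control tumor 1 gave 2.87 CPM and the others 1.93 to 2.03. DDX50 was at 124 CPM in null tumor 1 and at 80.2 to 87.1 in the other libraries of its group. In library 4 of the control cells, DDX55 had 36.2 CPM, against 40.0 to 40.5 in the others. For DDX28, library 4 of the control cells gave 15.5 CPM and the others 12 to 12.5. UPF1 was at 157 CPM in control tumor 1 and at 181 to 184 in the other libraries of its group. In library 4 of the control cells, G3BP1 had 263 CPM, against 252 to 253 in the others. For USP10, control tumor 3 gave 102 CPM and the others 96.3 to 97.0. FXR1 was at 223 CPM in null tumor 1 and at 197 to 199 in the other libraries of its group. Of these 13 values, 4 were from null tumor 1, which also had the highest fibroblast and leukocyte sums. The part of those markers was not tested.

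The null effect differed between tumors and cells for 23 of 58 members by the interaction test (edgeR, adjusted p under 0.05). Of these, 10 had a higher and 13 a lower effect in tumors, beside 26.0% and 26.8% of all 13603 genes. On the log2 scale, the null effect (tumors minus cells) was higher for DDX19B at 4.72, DDX51 at 1.29 and DDX55 at 0.50. It was also higher for DDX56 at 0.63, DDX3X at 0.77, AGO1 at 0.38 and MOV10 at 1.17. G3BP2 at 0.83, TIA1 at 0.64 and TIAL1 at 0.31 completed the higher effects. The effect was lower for DDX20 at -0.39, DDX39A at -0.56, DDX46 at -0.51, DDX19A at -0.27 and DDX27 at -0.60. So it was for DDX31 at -0.49, DDX1 at -0.73, DDX11 at -0.73 and DDX28 at -0.71. DCP1B at -1.30, EIF4ENIF1 at -0.34, AGO2 at -0.59 and USP10 at -0.55 also had a lower effect. Of the 23, 9 kept their call in all 24 alternatives and 15 after centring by chromosome.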

How the results depend on the processing

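Of the 27 members called in monolayer cells, 13 kept their call in all 17 alternatives, as did 21 of 40 in control tumors against control cells, 0 of 1 between tumors and 9 of 23 for the difference of effects (24 alternatives). Library totals in place of TMM gave 19 higher members in monolayer cells, beside 5030 of all genes. In control tumors they gave 11 lower members, beside 2870 of all genes. They moved the median log2 change of all genes by 0.166 between settings and -0.138 in the difference. Between tumors, 1 member was higher with DESeq2, with the replicate block and in the model of 16 libraries (TIA1), 2 were lower with DESeq2, and 0 were lower with DESeq2 size factors or either centring. Without 1 library, members higher and lower ranged from 11 to 17 and 13 to 17 in monolayer cells, 0 to 0 and 0 to 0 between tumors, 15 to 18 and 16 to 22 between settings, and 9 to 12 and 10 to 13 for the difference. All genes called between tumors ranged from 11 to 182 higher and 15 to 131 lower in this way, and were 481 and 399 with DESeq2, 470 and 338 in the model of 16 libraries and 258 and 167 with the replicate block, against 127 and 143. Centring on neighbours turned DDX54 to 0.39, DDX55 to 0.02, DDX56 to 0.27 and ATXN2 to 0.38 in monolayer cells, DDX56 to 0.29, EDC4 to -0.11, PABPC1 to 0.18 and FXR1 to 0.04 between settings, and DDX55 to -0.02, DDX56 to -0.42 and TNRC6A to 0.30 in the difference. Centring by chromosome turned DDX56 to 0.06, PATL1 to 0.01 and CAPRIN1 to 0.23 in monolayer cells and DDX56 to -0.11 in the difference. The cause of these moves was not tested. Replicate numbers were not shown to pair libraries: correlations of same-numbered libraries were -0.171, -0.231, 0.394 and 0.249 in monolayer cells. The replicate block gave 14 higher and 15 lower members there, 19 and 19 between settings and 10 and 13 for the difference. With 4 libraries a group and DDX4, DDX25, DDX43 and DDX53 at a few counts, differences in these 4 genes were not detectable at this depth.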
